A study of Homo sapiens with 36 samples.

Results

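The guides of the Mir-21 and Mir-221 families were followed through small RNA sequencing of HEK293T cells that expressed tagged AGO2. They were taken by name, as the entries of the deposited table that begin with Hsa-Mir-21_ or Hsa-Mir-221- and carry no asterisk, the sign by which MirGeneDB marks passenger strands. This gave 3 guides of the 135 mature miRNAs in the table, 110 of which are guides. They are Hsa-Mir-21_5p, Hsa-Mir-221-P1a_3p and Hsa-Mir-221-P2a_3p, the last 2 shortened to P1a and P2a here. The rule uses names alone, and the families were picked with earlier results of these data known.

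HEK293T is a line of human embryonic kidney cells that takes up plasmids readily, and the cells keep their own AGO genes. They were co-transfected with pEGFP-C1 and a plasmid for Flag/HA-tagged WT-AGO2, for AGO2 with F182del, N359H, G604R or D619N, or with the Flag/HA-empty vector. Small RNA was sequenced from the lysate (input) and from what an anti-HA antibody precipitated (IP), with 3 replicates of each of these 12 conditions and 36 libraries in all. The replicates are numbered in the labels, and nothing says that they are separate cultures, so that p-values measure the spread between these samples. Since whole lysates were sequenced, fewer transfected cells and less RNA per cell cannot be told apart.

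A miRNA hairpin is cut into a duplex, of which Argonaute keeps one strand, the guide, and releases the other, the passenger. The guide finds its targets mainly through its seed, bases 2 to 8 from the 5′ end, and miRNAs with the same seed can bind the same sites. miR-21 is known as a growth-promoting miRNA that represses the tumour suppressor PDCD4. The neighbouring miR-221 and miR-222 are known for repressing the cell cycle inhibitor CDKN1B.

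The mature sequences that RefSeq gives for these guides on GRCh38.p14 are shown because they define which targets the members can share. Capitals mark the seed.
hsa-miR-21-5p: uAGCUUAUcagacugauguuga
hsa-miR-221-3p: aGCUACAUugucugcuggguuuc
hsa-miR-222-3p: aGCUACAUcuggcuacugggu
The Mir-221 guides share their first 8 bases, seed included. Aligned over their whole length they hold 18 identical bases, 2 mismatches and 4 gaps. Of 2370 human mature miRNA names in the reference table, 2 hold this seed, hsa-miR-221-3p and hsa-miR-222-3p, and 2 hold the seed of miR-21, hsa-miR-21-5p and hsa-miR-590-5p. Neither the table nor the reference pairs P1a and P2a with miR-221 and miR-222, so both sequences stand for the family.

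The mature miR-21-5p lies at chr17:59841273-59841294 on the plus strand, within the last exon of VMP1, a protein-coding gene on the same strand. The mature miR-221-3p lies at chrX:45746180-45746202 and miR-222-3p at chrX:45747036-45747056, both on the minus strand. Their hairpins are 748 bases apart in an intron of MIR222HG, a lincRNA on the same strand.

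Levels are given as a share, the reads of a miRNA in percent of all mature miRNA reads of its library, with the reads behind it. Mature miRNA reads numbered 1150 to 30793 in the IP libraries of the AGO2 groups (median 6105), 174 to 202 in the IP libraries of the empty vector, and 446 to 12040 in the inputs of the AGO2 groups (median 2746). Replicate 1 of the G604R input (9395 reads in total) and of the D619N input (17118) were the shallowest inputs.

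In the IP of WT-AGO2, P1a held 1.35%, 2.32% and 2.05% of mature miRNA reads in replicates 1, 2 and 3, from 416, 149 and 125 reads. P2a held 0.211%, 0.311% and 0.164% there, from 65, 20 and 10 reads. Mir-21_5p held 0.0779%, 0.0933% and 0.0983%, from 24, 6 and 6 reads. The 3 guides thus kept 1 order in each of these libraries, P1a above P2a above Mir-21_5p, with no overlap between them.

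In the input of the same cells the Mir-221 guides lay close together. P1a held 0.639%, 1.20% and 1.46%, and P2a held 1.03%, 0.772% and 0.983%. P2a was above P1a in replicate 1 and below it in replicates 2 and 3. Mir-21_5p held 5, 9 and 0 reads.

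**Figure D1:**
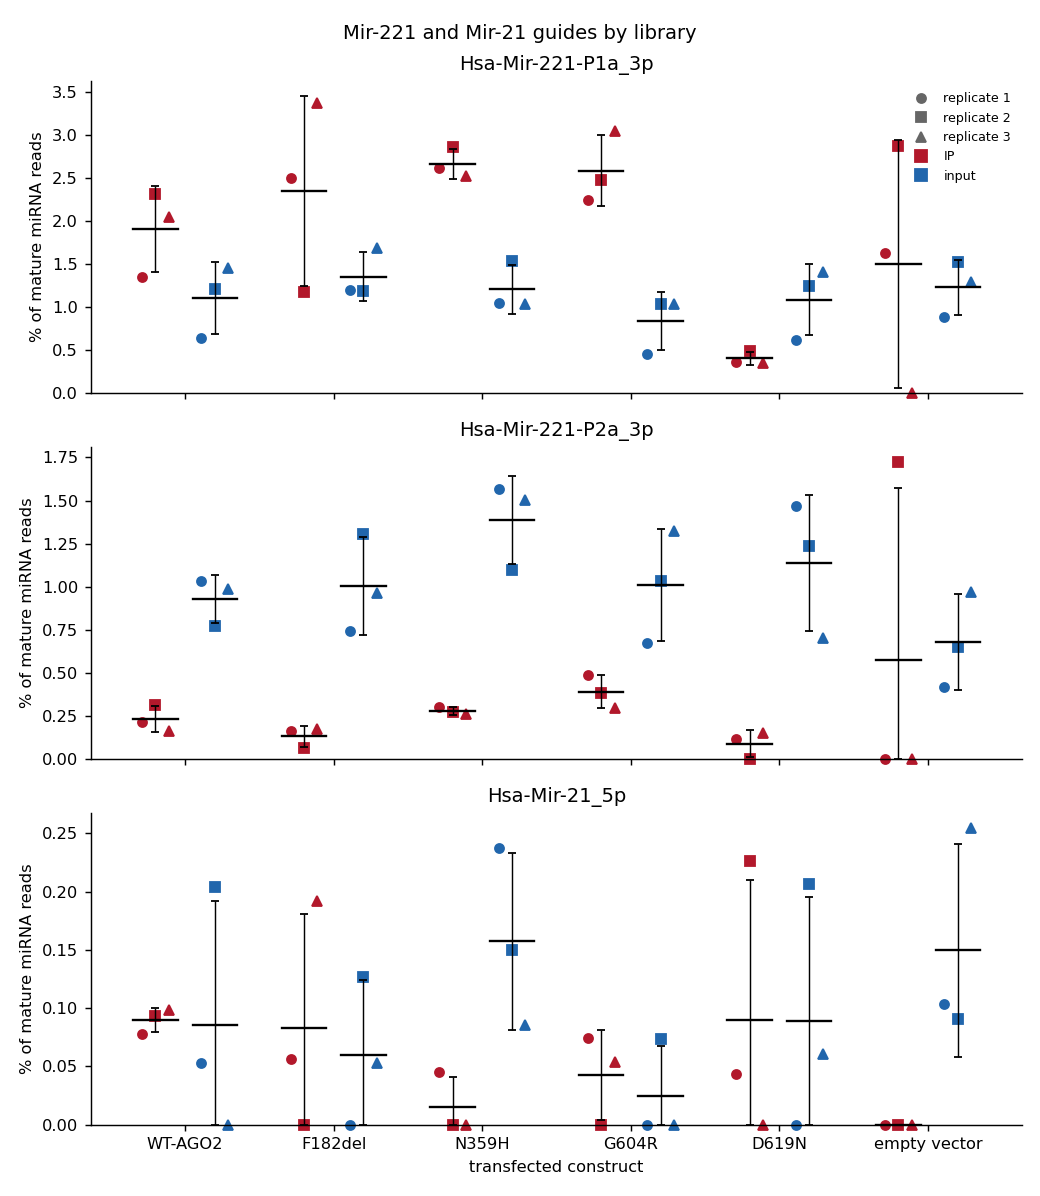
Percent of mature miRNA reads (y axis, linear, a range of its own in each panel) of the 3 guides in all 36 libraries, by transfected construct, with IP in red and input in blue. Points are libraries, lines are the mean and the SD over 3 replicates (lower end stopped at 0), and P1a in the D619N IP lies at 0.348% to 0.490%, below all 3 WT-AGO2 IP libraries.

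Each variant was compared with WT-AGO2 in IP, with all 4 comparisons using the same WT-AGO2 libraries. Fold changes are from limma over all tested miRNAs, as log2 of scaled RPM plus 1, with Benjamini-Hochberg adjusted p. RPM are the reads of a miRNA per 1000000 reads of its library, and libraries were scaled by the median of ratios over the miRNAs listed in every library of a fit. These were 58 of the 123 tested in the D619N IP, so the median change over all tested miRNAs need not be 0. The others had a library at 0, so their folds depend on the pseudocount, and they enter this median and the ranks by fold change. A miRNA counts as called where its adjusted p was under 0.05 and its log2 fold change was beyond 1 in either direction.

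P1a fell with D619N. It held 0.363%, 0.490% and 0.348% of mature miRNA reads in the D619N IP, from 25, 13 and 7 reads. The highest of these lay below the lowest WT-AGO2 library (1.35%), and the Wilson intervals at the 95% level of the 3 D619N libraries (counting error only) reached 0.535%, 0.836% and 0.717%. The mean share was 0.40% ± 0.0779 (SD, n = 3) against 1.91% ± 0.499 in WT-AGO2, 4.76 times lower. The fitted change was −2.18 (SE 0.28, limma adjusted p = 0.00444), and the median over all 123 miRNAs tested was −1.18. By fitted change P1a ranked 42 from the lowest of these 123, and by p it ranked 3. How many of them lay below WT-AGO2 without overlap was not counted.

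Of all miRNAs tested in the D619N IP, 14.6% were called, with 4 higher and 14 lower, and 1 of the 3 guides was among them. P1a was called in 10 of 11 alternative settings, with adjusted p from 0.00202 to 0.297. It missed the threshold on RPM as deposited, with a fitted difference of −1.63. On that scale the D619N libraries held 437, 177 and 421 RPM and the WT-AGO2 libraries 1486, 1447 and 456 RPM, again without overlap. Without D619N IP replicate 1 the number of miRNAs called rose from 18 to 29, and P1a changed by −2.19 (limma adjusted p = 0.0128).

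P2a in the D619N IP was listed with 8 reads in replicate 1, none in replicate 2 and 3 in replicate 3, or 0.116%, 0% and 0.149%. A count of 0 among 2655 mature reads allows a share of up to 0.113%. All 3 values lay below the WT-AGO2 range of 0.164% to 0.311%, and the difference was not called (limma adjusted p = 0.307). How many of all miRNAs tested lay below WT-AGO2 in this way was not counted. A fitted fold is not given here or for other comparisons with a library at 0, since it depends on the pseudocount.

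With F182del, P1a held 2.50%, 1.18% and 3.38% in IP, a range that takes in all 3 WT-AGO2 libraries. The fitted difference was 0.27 (SE 0.34, limma adjusted p = 0.688). Without F182del IP replicate 3, the highest library, it was −0.01. P2a held 0.158%, 0.0620% and 0.175%, with a fitted difference of −0.81 (SE 0.51, limma adjusted p = 0.425). None of the 3 guides was called, while 6.02% of the 133 miRNAs tested were. That count of 8 was 4 without WT-AGO2 IP replicate 2 and 3 without F182del IP replicate 1.

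With N359H, P1a was even between replicates, at 2.62%, 2.86% and 2.52%, all above the highest WT-AGO2 library (2.32%). Their Wilson intervals (counting error only) began at 2.26%, 2.48% and 1.76%. That of the highest WT-AGO2 library, replicate 2, reached 2.71%, so the intervals overlapped. The number of all miRNAs lying above WT-AGO2 in this way was not counted. The fitted difference of P1a, 0.59 (SE 0.23), had an unadjusted p of 0.0245 and a limma adjusted p of 0.74. P2a held 0.303%, 0.271% and 0.261%, with a fitted difference of 0.40 (SE 0.44, limma adjusted p = 0.793). The share of all miRNAs called by limma was 0 (0%) of 123, with 6 at an unadjusted p below 0.05, and the median change over all of them was −0.56. Without WT-AGO2 IP replicate 2 or 3, 3 were called.

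With G604R, P1a held 2.24%, 2.47% and 3.04%, and P2a 0.486%, 0.385% and 0.296%. Both ranges overlapped those of WT-AGO2. The fitted differences were 0.31 (SE 0.22, limma adjusted p = 0.473) for P1a and 0.63 (SE 0.38, limma adjusted p = 0.397) for P2a, beside a median of −0.34 over all miRNAs. None of the 3 guides was called and 4.88% of the 123 tested were. That count rests on single libraries, with 0 without G604R IP replicate 1 or 2 and 14 without replicate 3.

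In the inputs none of the guides was called for any variant. The fitted differences of P1a were 0.27 (SE 0.33) with F182del, 0.05 (SE 0.30) with N359H, −0.56 (SE 0.51) with G604R and −0.19 (SE 0.44) with D619N. Those of P2a were 0.01 (SE 0.29), 0.43 (SE 0.27), −0.09 (SE 0.36) and 0.07 (SE 0.27). In the D619N input P1a held 0.612%, 1.24% and 1.41%, which overlaps its range in the WT-AGO2 input. The share of all miRNAs called by limma was 0% for each of the 4 variants, and 9, 2, 11 and 4 miRNAs had an unadjusted p below 0.05. With G604R there were 7, 11 and 10 calls without WT-AGO2 input replicates 1, 2 and 3, and with D619N 5 without WT-AGO2 input replicate 3, none of them a guide of these families.

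**Figure D2:**
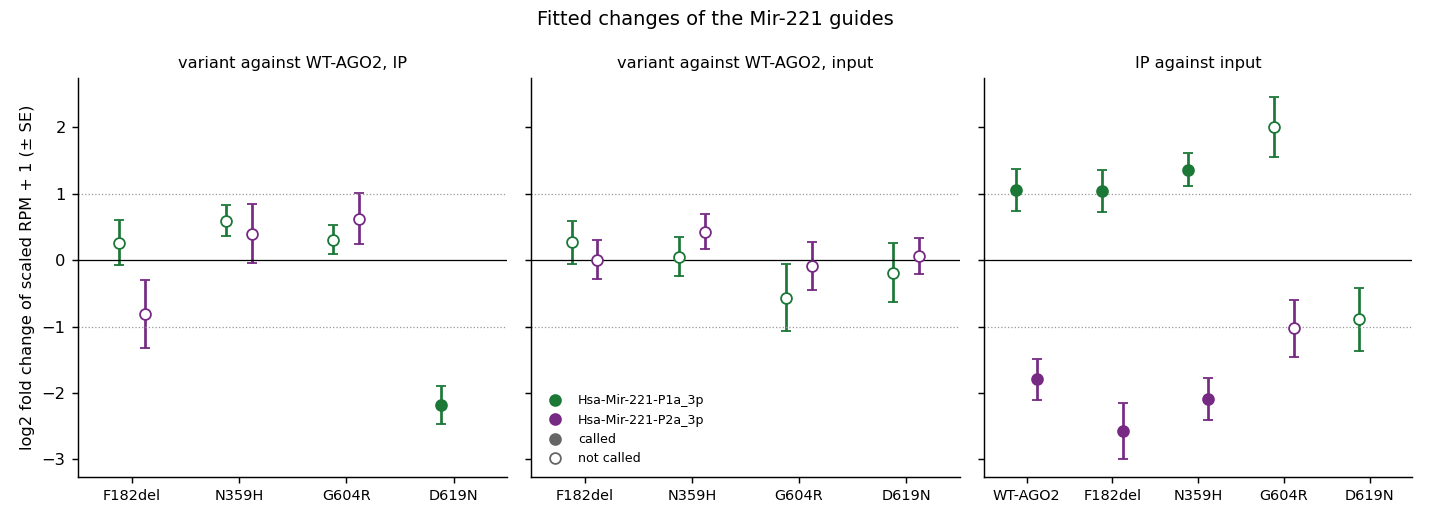
Fitted log2 fold changes with SE of the Mir-221 guides for each variant against WT-AGO2 in IP (left) and input (middle), and for IP against input (right), with filled points where the guide was called and dotted lines at −1 and 1. The IP change of P1a with D619N lies at −2.18, and P2a with D619N is left out in IP and in IP against input because 1 library is at 0.

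IP was then set against input for each AGO2. For P1a the share was higher in the IP than in the input of the same replicate in 11 of 15 pairs. The ratio was 2.11, 1.93 and 1.41 with WT-AGO2, 2.1, 0.998 and 2.01 with F182del, and 2.51, 1.86 and 2.45 with N359H. With G604R it was 5.0, 2.39 and 2.96, where the first rests on the shallowest input. With D619N it was 0.592, 0.396 and 0.248, below 1 in each of the 3 replicates.

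The share of P2a was lower in the IP than in the input in 15 of 15 pairs. The ratio was 0.204, 0.403 and 0.167 with WT-AGO2, 0.214, 0.0474 and 0.182 with F182del, and 0.193, 0.247 and 0.174 with N359H. With G604R it was 0.722, 0.373 and 0.224, and with D619N 0.0790 in replicate 1 and 0.212 in replicate 3, with no IP read in replicate 2. The 2 Mir-221 guides share a seed, and their ratios lay on opposite sides of 1 in each replicate of WT-AGO2, N359H and G604R and in replicates 1 and 3 of F182del. With D619N both lay below 1. The same counts of pairs over all miRNAs, for P1a and for P2a, were not made, so these directions are a description.

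**Figure D3:**
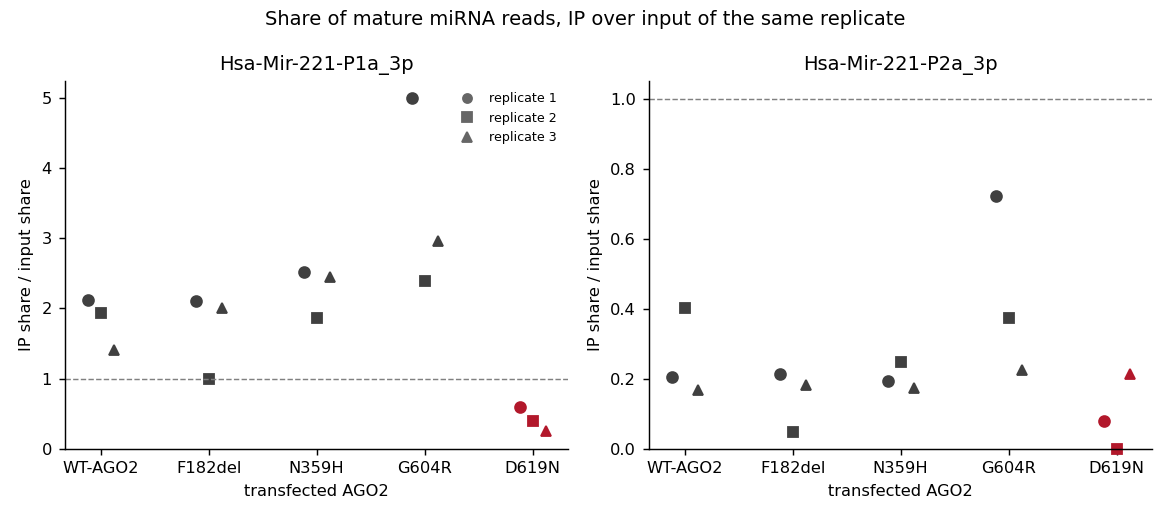
Share of mature miRNA reads in IP divided by that in the input of the same replicate (y axis, linear) for P1a and P2a, with 1 point per replicate, D619N in red and a dashed line at 1. The P1a ratios with D619N (0.248 to 0.592) lie below those of the other 4 AGO2 proteins, and every P2a ratio lies below 1.

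In the fits, P2a was lower in IP with WT-AGO2 (−1.80, SE 0.31, limma adjusted p = 0.00654), F182del (−2.57, SE 0.42, adjusted p = 0.000185) and N359H (−2.09, SE 0.31, adjusted p = 9.21e-05). It was not called with G604R (−1.03, SE 0.43, limma adjusted p = 0.158) or D619N (adjusted p = 0.0801). P1a was higher with WT-AGO2 (1.06, SE 0.32, limma adjusted p = 0.0491), F182del (1.04, SE 0.32, adjusted p = 0.0226) and N359H (1.36, SE 0.25, adjusted p = 0.000429). The difference was 2.01 with G604R (SE 0.46, limma adjusted p = 0.0508) and −0.89 with D619N (SE 0.47, adjusted p = 0.22), neither called. The direction of P2a turned on RPM as deposited, which are relative to all reads of the library. There P2a was called higher in IP with WT-AGO2 (1.99, limma adjusted p = 0.0317) and had uncalled differences of 0.44 with F182del, 1.43 with N359H and 0.42 with G604R. P1a with D619N had an uncalled difference of 1.94 on that scale.

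The share of all miRNAs called between IP and input was 11.9% with WT-AGO2, 23.5% with F182del, 11.7% with N359H, 8.57% with G604R and 17.5% with D619N, and 2 of the 3 guides were called with each of the first 3. With the replicate number as a block, the count fell from 9 to 0 with G604R and from 18 to 2 with D619N, while P1a and P2a remained called with the other 3. Without IP replicate 1 the count with WT-AGO2 was 1 in place of 15, and 8 without input replicate 2. With F182del it was 15 and 18 in place of 31 without IP replicates 1 and 3. With N359H it was 23 without IP replicate 3 and 3 without input replicate 2, in place of 14, and with G604R it was 16 without input replicate 2.

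Some of these calls rested on single libraries. For P1a with WT-AGO2 the call was lost without IP replicate 1 (1.21, limma adjusted p = 0.114), IP replicate 2 (0.95, 0.153) or IP replicate 3 (1.01, 0.0876), and without input replicate 1 (0.68, 0.0875) or 2 (1.19, 0.0730). For P1a with F182del it was lost without IP replicate 1 (0.84, limma adjusted p = 0.258) or 3 (0.80, 0.135) and without input replicate 1 (0.84, 0.0670) or 2 (0.90, 0.15), and without IP replicate 2 the change was 1.64. It was also lost on the scale of mature miRNA reads alone for WT-AGO2 (0.84) and F182del (0.69), and with a pseudocount of 10 RPM for F182del (0.99). For P2a with WT-AGO2 it was lost without IP replicate 1 (−1.82, limma adjusted p = 0.0542). Calls were gained for P1a without the shallow input replicate 1, at 1.42 with G604R (limma adjusted p = 0.0161) and −1.35 with D619N (adjusted p = 0.0224).

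The balance of the 2 Mir-221 guides was also compared. This measure was chosen after the values were seen, and it is a ratio of reads, not of molecules. In IP, P1a made up 89.1% ± 3.15 of the reads of both guides with WT-AGO2 (SD, n = 3), 94.7% ± 0.574 with F182del, 90.5% ± 0.869 with N359H and 86.6% ± 4.47 with G604R. With D619N it was 81.9% ± 15.9, ranging from 70.0% to 100%, on 56 reads of both guides in all. In the inputs P1a made up 52.9% ± 12.8 with WT-AGO2, 57.6% ± 8.83 with F182del, 46.3% ± 10.4 with N359H, 44.6% ± 5.05 with G604R and 48.7% ± 18.7 with D619N.

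The IP and input libraries did not overlap for any of the 5 AGO2 proteins. A two-sided exact permutation test gave p = 0.1 each, the smallest that 3 against 3 allows, and 0.15 after Benjamini-Hochberg adjustment over 9 comparisons. It took the libraries as unpaired, so IP and input of one replicate number were not matched. F182del also lay apart from WT-AGO2 in IP, by 5.62 percentage points (exact p = 0.1, adjusted 0.15), while the other 3 variants overlapped it (exact p = 0.5 each).

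**Figure D4:**
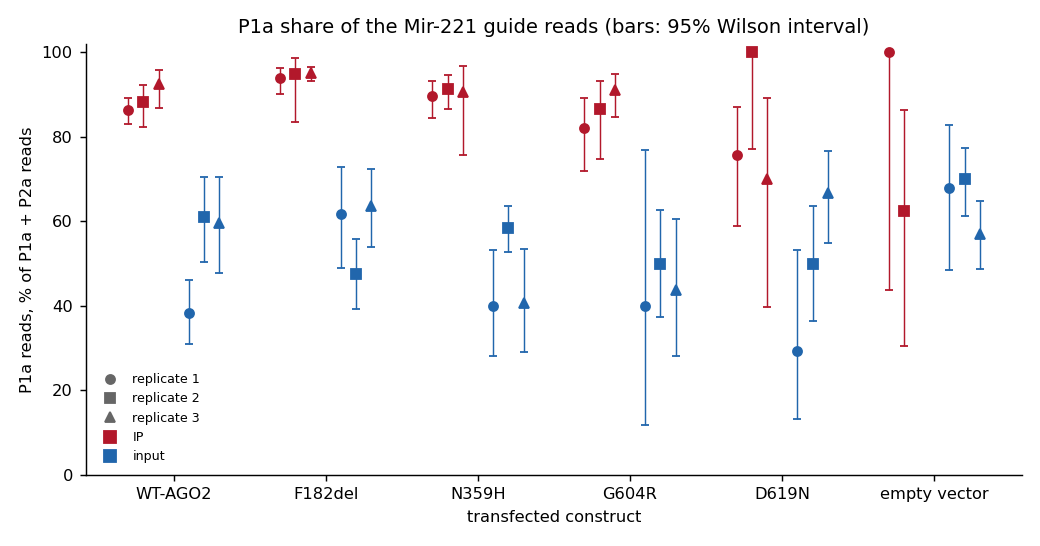
P1a reads in percent of P1a and P2a reads (y axis, from 0) in each library, by construct, IP in red and input in blue, with the 95% Wilson interval, which covers counting error only. For each AGO2 protein the 3 IP libraries lie above the 3 inputs, and the bars are widest where few reads were counted, as in D619N and empty vector IP.

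Whether IP over input differed between a variant and WT-AGO2 was tested as an interaction. None of the 3 guides was called for any variant. For P1a with D619N the difference was −2.02 (SE 0.57), with an unadjusted p of 0.00416 and a limma adjusted p of 0.0881. Without D619N input replicate 1, the library of 17118 reads, it was −2.45 (limma adjusted p = 0.0170), and in the other 16 settings it was not called (limma adjusted p from 0.0734 to 0.368). For P1a it was −0.06 (SE 0.47) with F182del, 0.28 (SE 0.42) with N359H and 0.84 (SE 0.65) with G604R. For P2a it was −0.83 (SE 0.54), −0.30 (SE 0.44) and 0.66 (SE 0.59). The share of all miRNAs called was 0.741% with F182del (1 miRNA, 6 with the IP and input of one replicate as a block), 0% with N359H, where limma gave 5 an unadjusted p below 0.05, 1.54% with G604R (2, or 0 with the block) and 3.94% with D619N (5, or 1 with the block).

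The passenger of P1a, Hsa-Mir-221-P1a_5p*, was listed in 14 of 15 IP libraries of the AGO2 groups. It held 0.585%, 0.389% and 1.05% with WT-AGO2. With F182del it held 1.03%, 1.33% and 1.82% and with G604R 2.32%, 1.26% and 1.48%. The values with G604R lay above the WT-AGO2 range and those with F182del overlapped it. Neither was called against WT-AGO2 (F182del 1.18, SE 0.34, limma adjusted p = 0.0585, and G604R 1.24, SE 0.40, adjusted p = 0.237). How many of all miRNAs lay above the WT-AGO2 range with G604R was not counted. Between IP and input the passenger was higher in IP with F182del, by 2.13 (SE 0.29, limma adjusted p = 1.34e-05). It was not called with WT-AGO2 (0.73, SE 0.39, limma adjusted p = 0.194) or N359H (−0.05, SE 0.45, adjusted p = 0.969), nor with G604R or D619N, where 1 library was at 0 (adjusted p = 0.154 and 0.199). The difference between F182del and WT-AGO2 in IP over input was not called either (1.37, SE 0.46, limma adjusted p = 0.165).

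With D619N the passenger held 12, 0 and 2 reads or 0.174%, 0% and 0.0995%, below each WT-AGO2 library, and the difference was not called (limma adjusted p = 0.128). The number of all miRNAs lying below WT-AGO2 in this way was not counted. Of the reads of both P1a strands the passenger made up 26.1% ± 10.4 with WT-AGO2, 39.1% ± 12.5 with F182del, 13.0% ± 7.30 with N359H, 39.1% ± 10.1 with G604R and 18.2% ± 16.6 with D619N in IP. Each variant overlapped WT-AGO2 (two-sided exact permutation test, p from 0.2 to 0.6).

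Mir-21_5p was near the limit of detection. It was listed in 23 of 36 libraries with 171 reads in all, and its highest value was 35 reads, in replicate 3 of the F182del IP. In the IP it held 5, 0 and 35 reads with F182del, 3, 0 and 0 with N359H, 2, 0 and 2 with G604R and 3, 6 and 0 with D619N. Only WT-AGO2 had reads in all 3 IP libraries. In replicate 2 of the N359H IP, a count of 0 among 6284 mature reads allows a share of up to 0.0477%, below the WT-AGO2 range, while in replicate 3 of N359H it allows 0.261%, above that range. Mir-21_5p was called in 0 of 18 fits with limma (adjusted p from 0.133 to 0.995, and 2 at an unadjusted p below 0.05). On RPM as deposited it was called in 1, IP against input of WT-AGO2.

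The passenger of Mir-21_5p, Hsa-Mir-21_3p*, held 11, 3 and 2 reads in the IP of WT-AGO2 and none in the 3 N359H IP libraries (limma adjusted p = 0.601). With F182del it held 0, 0 and 4 reads in IP and 6, 2 and 8 in input, and was called lower in IP than in input (limma adjusted p = 0.0350). It was not called in any other comparison in which it was tested.

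The IP of the empty vector gives the background. P1a held 3, 5 and 0 reads there, or 1.63%, 2.87% and 0% of the few mature miRNA reads, P2a held 0, 3 and 0, and Mir-21_5p held none. The summed share of the 3 guides was 2.08% ± 2.33 against 2.22% ± 0.546 in the IP of WT-AGO2, with no difference beyond the spread (two-sided exact permutation test, p = 0.9, n = 3). With the empty vector it ranged from 0% to 4.60% on few reads, so the test cannot show that the shares are equal. Relative to all reads the guides made up 111 RPM ± 96.1 against 1340 RPM ± 716 (exact p = 0.1). P1a in the D619N IP held 345 RPM ± 145, against 90.1 RPM ± 84.0 in the empty vector IP. As a share of mature reads the order of these means was the other way, at 0.40% ± 0.0779 with D619N and 1.5% ± 1.44 in the empty vector IP, and the libraries overlapped. Neither difference was tested.

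The input of the empty vector was compared with that of WT-AGO2. P1a held 0.883%, 1.52% and 1.29%, a difference of 0.27 (SE 0.30), and P2a held 0.416%, 0.650% and 0.970%, a difference of −0.43 (SE 0.27), both with a limma adjusted p of 0.99. The share of all 105 miRNAs called by limma was 0%, with 3 at an unadjusted p below 0.05 and 1 called with the replicate number as a block.

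Other guides linked to growth were set beside the members by name. A list of 14 growth-promoting guides (prefixes Mir-17, Mir-19 and Mir-92) had 1 higher and 1 lower of 12 tested in the D619N IP, where 14.6% of all miRNAs were called. These were Hsa-Mir-92-P2d_3p (1.25, SE 0.24, limma adjusted p = 0.0141) and Hsa-Mir-92-P1d_3p (−1.18, SE 0.25, adjusted p = 0.0209). The list's median was −0.56, beside −1.18 for all, and the latter takes in miRNAs with a library at 0. Of 14 growth-restraining guides (prefixes Let-7, Mir-15 and Mir-34), all tested with D619N, 0 were called by limma and the median was −0.14. With F182del, N359H and G604R neither list had a call in IP, where 6.02%, 0% and 4.88% of all miRNAs were called, and neither had one in any input comparison. In the interactions 1 list member was called, Hsa-Mir-17-P1c_5p with D619N (limma adjusted p = 0.0284), which was at 0 in 8 of the 12 libraries of that fit.

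Between IP and input of WT-AGO2, where 11.9% of all miRNAs were called, 1 of 14 growth-promoting guides was lower and none higher. It was Hsa-Mir-17-P4a_5p, at −2.52 (SE 0.43, limma adjusted p = 0.00654). With F182del (23.5% of all called) the list had 2 lower of 14, this guide at −2.32 and Hsa-Mir-17-P1d_5p at −1.65 (limma adjusted p = 0.000983 and 0.0179). With N359H (11.7%) the same 2 of 14 were lower (limma adjusted p = 0.00939 and 0.0288), each with 1 library at 0. With G604R (8.57%) none of 12 was called. With D619N (17.5%) 3 of 11 were higher and 1 lower. The higher ones were Hsa-Mir-92-P1c_3p (1.36), Hsa-Mir-92-P1a_3p (1.32) and Hsa-Mir-92-P2d_3p (1.31), with limma adjusted p of 0.00512, 0.00512 and 0.0276, and the lower one was Hsa-Mir-17-P4a_5p (−2.67, adjusted p = 0.0305). Hsa-Mir-92-P1c_3p and Hsa-Mir-92-P1a_3p had near-identical fits (SE 0.16 and 0.17) and may share reads, so they may not be separate observations. With the replicate number as a block, most calls of the D619N comparison were lost. The list's median was −0.17 with WT-AGO2 and −0.51 with D619N, beside 0.28 and 0.06 over all miRNAs.

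Of the growth-restraining guides 1 was higher and 3 lower of 14 with WT-AGO2, beside the same 11.9% of all. The higher one was Hsa-Let-7-P2c2_5p (limma adjusted p = 0.0491), with 2 of 6 libraries at 0. The lower ones were Hsa-Let-7-P2a1_5p and Hsa-Let-7-P1d_5p, with the same fitted value of −2.01, and Hsa-Let-7-P2a2_5p at −1.98 (limma adjusted p = 0.0267 and 0.0269). The same 3 were lower with F182del, of 12 tested, and with N359H, of 14, at one fitted value of −1.49 and −1.93 (limma adjusted p = 0.0292 and 0.0178). Such near-identical paralogues can share reads and are not separate observations. None of 11 was called with G604R, and with D619N 1 of 13 was higher, Hsa-Let-7-P2c2_5p (limma adjusted p = 0.0276), with 3 of 6 libraries at 0. The list's median was −0.59 with WT-AGO2.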

How the data were processed

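Small RNA from input and anti-HA IP was sequenced as single-end reads (TruSeq Small RNA kit, Illumina NextSeq). Per the methods, the authors ran sRNAbench against MirGeneDB. The table they deposited lists RPM for 135 mature miRNAs, where the total is that of all reads in a library. The labels name GRCh38. The terms minExpr1 and RCadj in the deposited label are not explained. Values were whole multiples of 1 read within 0.01, which gave the reads and depths quoted, and no count model was fitted. Whether these are unadjusted counts was not established, and the Wilson intervals and the limits for a count of 0 assume it.

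Libraries were grouped by the labels. Each fit used limma 3.58.1 in R 4.3.3, with a mean-variance trend, on log2(RPM + 1). Libraries were first scaled by the median of ratios over the miRNAs listed in every library of that fit. Tested were miRNAs reaching a scaled RPM of 1 in 2 of the 3 libraries of either group. Benjamini-Hochberg adjustment covered all miRNAs tested. Shares were compared by exact permutation tests in scipy 1.17.1. The fit was run on simulated F182del and WT-AGO2 IP libraries with known changes, and recovery was required only at a depth far above the real one. That run does not show recovery at the depth of these libraries.

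Same-numbered libraries deviated together, with all 3 correlations above 0.1, for F182del in IP (0.342, 0.177 and 0.113) and input (0.206, 0.284 and 0.237), N359H in input (0.195, 0.127 and 0.129) and the empty vector in input (0.336, 0.181 and 0.302). The methods take input and IP from one lysate, and the labels number both without naming a lysate. IP and input with one number were therefore taken as a pair. Between them the correlations ranged from −0.171 (D619N) to 0.398 (WT-AGO2), and no AGO2 protein had all 3 above 0.1.

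Named are the members, their passengers, list members that were called and, per member, the 3 miRNAs with the highest Pearson correlation. The members, lists and settings were chosen with earlier results of these data known. The table holds miRNAs alone, so no marker gene of the cell line was checked. A count of 0 is given the limit of 3 reads. No entry of these families held a single read in any library. A listed 0 may therefore stand for a read that was dropped, and these limits may be too low.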

Additional observations from a re-analysis of the deposited data

Results flagged for a closer look

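The ratio of IP to input of P1a, as shares of mature miRNA reads, went in opposite directions with D619N and with WT-AGO2. It was 2.11, 1.93 and 1.41 in the 3 replicates of WT-AGO2, all above 1, and 0.592, 0.396 and 0.248 in those of D619N, all below 1. The interaction of fraction and variant tests this difference. It was −2.02 on the log2 scale (SE 0.57, unadjusted p = 0.00416) and missed the threshold after adjustment over 127 miRNAs (limma adjusted p = 0.0881, and 0.111 with the IP and input of one replicate as a block). The D619N ratios rest on 25, 13 and 7 reads in IP and 5, 24 and 46 in input. Without replicate 1 of the D619N input, the library of 17118 reads, the difference was −2.45 (limma adjusted p = 0.0170). On RPM as deposited P1a was above its input with both, by 4.88 with WT-AGO2 and an uncalled 1.94 with D619N, and their difference was −2.94 (limma adjusted p = 0.368).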

How the results depend on the processing

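The alternatives were RPM as deposited, scaling to mature miRNA reads alone, dropping the filter on low values, a pseudocount of 10 RPM, the replicate block and each library left out in turn. P1a with D619N in IP kept its direction in all 11 and was called in 10. A count test on recovered reads was not run, since the table holds too few low values to establish unadjusted counts. The cause of a changed value was not tested.

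On RPM as deposited the miRNAs called were 2 for F182del, 0 for G604R and 0 for D619N in IP, 3 and 1 for the interactions of F182del and D619N, and 100, 92, 49, 27 and 9 for IP against input of WT-AGO2, F182del, N359H, G604R and D619N. On that scale these changes reversed: P1a with F182del in IP (−0.54), P1a and P2a with G604R in IP (−0.80 and −0.48), P2a with F182del in input (−0.055), P1a and P2a with G604R in input (0.61 and 1.08), P1a with D619N in input (1.31), and the G604R interactions of P1a and P2a (−1.41 and −1.56). IP against input reversed for P2a with WT-AGO2 (1.99), F182del (0.44), N359H (1.43) and G604R (0.42) and for P1a with D619N (1.94). Mir-21_5p was called in 1 fit there. The guides' sum in the empty vector IP, in RPM, had an exact permutation p = 0.1 against WT-AGO2.

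With a pseudocount of 10 RPM the counts were 0 for G604R and 28 for D619N in IP, 0, 1 and 2 for the interactions of F182del, G604R and D619N, and 15 for IP against input of G604R. Without the filter they were 0 for G604R in IP and 10 for IP against input of D619N. Scaled to mature reads alone they were 6 for the G604R input, 1 and 3 for the interactions of N359H and D619N and 15 for IP against input of F182del, and P2a in the G604R input reversed (0.077).

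With the replicate block the counts were 0 for G604R in IP, 1 for the D619N input, 1 for the empty vector input, 6, 0 and 1 for the interactions of F182del, G604R and D619N, and 0 and 2 for IP against input of G604R and D619N. The block changed no call of P1a or P2a. Outside the pairs named with the methods the numbers were not shown to pair variant and WT-AGO2, with correlations from −0.13 to 0.34.

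With each library left out in turn, the counts ranged from 3 to 10 for F182del, 0 to 3 for N359H, 0 to 14 for G604R and 15 to 29 for D619N in IP, 0 to 11 and 0 to 5 for G604R and D619N in input, 0 to 2, 1 to 4 and 3 to 7 for the interactions of F182del, G604R and D619N, and 1 to 17, 15 to 32, 3 to 23, 8 to 16 and 12 to 21 for IP against input of WT-AGO2, F182del, N359H, G604R and D619N. Uncalled changes crossed 0 for P1a with F182del in IP (−0.010 to 0.75), for P1a in input with F182del (−0.059 to 0.51), N359H (−0.24 to 0.22), D619N (−0.55 to 0.25) and the empty vector (−0.062 to 0.45), for P2a in input with F182del (−0.22 to 0.18), G604R (−0.38 to 0.17) and D619N (−0.094 to 0.24), and for the F182del interaction of P1a (−0.34 to 0.38). The difference in the summed share between empty vector and WT-AGO2 ranged from −1.41 to 0.89 percentage points, without a direction. Libraries with few mature reads limit Mir-21_5p throughout and P2a in D619N.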

Other observations

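By mean share, P1a ranked 8 of 135 mature miRNAs in the IP of WT-AGO2, F182del and N359H, 7 with G604R and 24 with D619N. In the inputs of the AGO2 groups it ranked between 13 and 19. P2a ranked between 15 and 19 in those inputs, and 48 in the IP of WT-AGO2, 62 with F182del, 39 with N359H, 34 with G604R and 61 with D619N. The ranks come from the same libraries as the shares and are a description.

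Over the 15 IP libraries of the 5 AGO2 groups and 72 miRNAs listed widely enough, the miRNAs whose scaled levels followed P1a most closely were Hsa-Mir-577_5p (Pearson r = 0.865), Hsa-Mir-191_5p (0.813) and Hsa-Mir-30-P1a_5p (0.805). For P2a they were Hsa-Mir-30-P1a_5p (0.855), Hsa-Mir-28-P2_5p (0.852) and the passenger Hsa-Mir-221-P1a_5p* (0.814). P1a and P2a had r = 0.548, which put P2a at place 21 for P1a. These points share groups, libraries and depth, so no test is given. Mir-21_5p was listed in too few libraries for this measure.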
